A study of Homo sapiens with 6 samples.

Results

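The genes described here are 38 genes of mitosis and the mitotic spindle, chosen by name from lists of G2/M cyclins, kinases, spindle motors and kinetochore proteins. All 38 were found among the 61806 genes of the count table and all 38 passed the filter on low counts, out of 19149 genes tested. They were measured by RNA sequencing in MV4-11, an established human line of acute myeloid leukemia (AML) with an internal tandem duplication of FLT3. There were 6 libraries of that line, 3 with a control short hairpin RNA (shNC 1 to 3) and 3 labelled as carrying a hairpin against ATGL (shATGL 1 to 3), the triglyceride lipase encoded by *PNPLA2*. Hairpins were delivered by lentivirus with selection of stably transduced cells. The study used more than 1 hairpin against ATGL, and the labels do not say which of them each library carried or whether the libraries came from separate cultures, so p-values measure the spread between these libraries. The comparison asks whether the level of each mitotic mRNA differed between the groups.

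Cells enter mitosis when cyclin B binds the kinase CDK1 and the CDC25 phosphatases remove its inhibitory phosphates. Chromosomes are then attached by their kinetochores to the microtubules of the spindle, which motor proteins of the kinesin family build and move. The spindle checkpoint holds back the anaphase-promoting complex until every chromosome is attached, and that complex then marks cyclin B and securin for destruction, so that the sister chromatids part. The genes of these proteins are transcribed mainly late in the cell cycle, and their mRNAs are used as signs of dividing cells, also in leukemia. In RNA of whole cultures, fewer cells in mitosis and less mRNA in each of them cannot be told apart.

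The total counts lay between 59674064 and 74808280 per library, with shNC 2 and shATGL 3 the shallowest, and a count was at least 823 for every member in every library. The unit of level is CPM, a gene's counts scaled to a common library size after TMM normalization, and values of single libraries are given in the order 1, 2 and 3. *PNPLA2* itself did not separate the groups. It stood at 101, 97.00 and 107 CPM in shNC, against 102, 98.1 and 104 CPM in shATGL. With edgeR, its log2 fold change was -0.0053 ± 0.063 (SE, adjusted p = 0.979), with 3 libraries a group, and an exact two-sided permutation test gave p = 1.0, where the smallest p that 3 against 3 libraries allow is 0.1. The library shATGL 3 stood apart from the other shATGL libraries. The chi-square per degree of freedom between the counts of 2 libraries, which is near 1 for repeated sampling of 1 library, was 13.5 between shATGL 1 and shATGL 2 and 96.7 and 101 between shATGL 3 and each of them, against values from 28.2 to 31.4 between shATGL 3 and the shNC libraries. Between pairs of shNC libraries it was 12.3, 24 and 29.6. Because shATGL 3 stood apart from shATGL 1 and 2, the log2 fold change of every member is given with and without it. This choice came from the same counts that were tested, and it narrows the spread within shATGL where that library differed. Adjusted p-values without shATGL 3 are therefore descriptions of the remaining libraries. All 10 myeloid leukemia markers were detected at 1 CPM or more in every library, of which *MPO* (3.46 to 4.65 CPM) and *MEIS1* (2.96 to 4.97 CPM) were lowest, and their summed level was 2170 to 2300 CPM in shNC and 2050 to 2120 CPM in shATGL. Of 18 markers of T and B cells, erythroid cells, epithelium and stroma, 9 were at 0 in every library and the highest was *PAX5*, at 6.26 to 7.78 CPM.

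The 38 genes were abundant. Their mean over the 6 libraries ranged from 25.9 CPM for *CDC25C* to 1015.5 CPM for *CDC20*, and all 38 lay above 8.89 CPM, the median of all genes tested. Together they took 5481, 5572 and 5546 CPM in shNC, against 6234, 6311 and 5113 CPM in shATGL. The summed level was thus higher in shATGL 1 and 2 than in the other 4 libraries. Abundant genes weigh most in a sum, and 21 of the 38 had a log2 fold change below 0 over all 6 libraries.

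**Figure D1:**
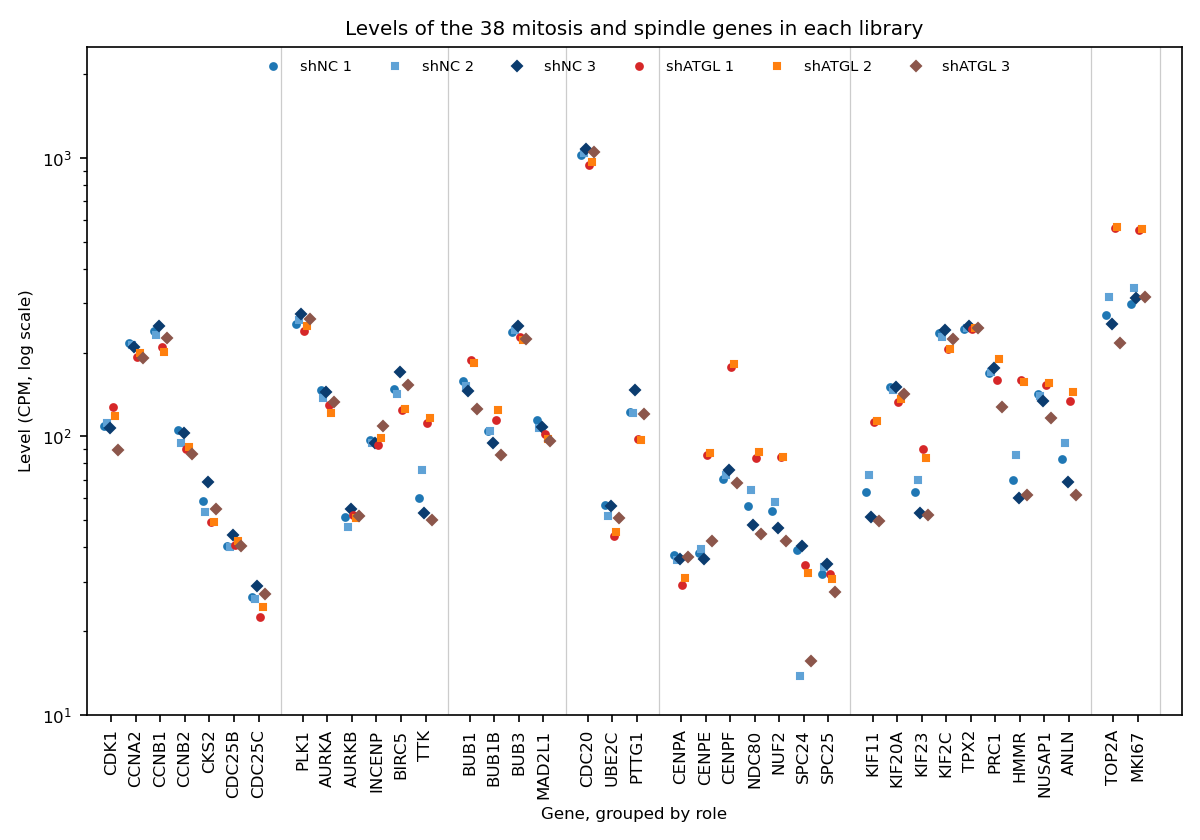
Level of each of the 38 genes in the 6 libraries, in CPM on a log scale. Genes are grouped by role (cyclins, *CDK1* and CDC25; kinases and the passenger complex; spindle checkpoint; anaphase switch; centromere and kinetochore; motors and microtubule proteins; chromosome proteins) and each point is 1 library. *CDC20* was the most abundant, *SPC24* was low in shNC 2 and shATGL 3, and genes such as *CENPE*, *CENPF*, *TOP2A* and *MKI67* were higher in shATGL 1 and 2 than in the other 4 libraries.

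To compare levels between genes, CPM were divided by the length of the longest protein-coding transcript in kilobases. On this scale *CDC20*, the activator that brings substrates to the anaphase-promoting complex, stood first at 588 ± 16.4 (SD, n = 3) CPM per kilobase in shNC. *PTTG1*, which encodes securin, the inhibitor of separase, followed at 121 ± 13.2, then *PLK1*, the kinase that drives centrosome maturation and entry into mitosis, at 118 ± 5.2, and *CCNB1*, cyclin B1, at 111 ± 4.28. The lowest were the 2 very long kinetochore genes, *CENPF* at 7.06 ± 0.272 and *CENPE*, a kinesin that carries chromosomes to the spindle equator, at 4.41 ± 0.178 CPM per kilobase. *CDC20* and *PTTG1* did not overlap, but 28 of the 37 neighbours in this order had overlapping ranges over the 3 shNC libraries. With the union of all annotated exons as the length, *CDC20* stood at 512 CPM per kilobase, and the order of the 38 genes had a Spearman's rho of 0.965 with the first order, and 0.836 when coding length was used.

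Within the roles, levels per kilobase spread widely. Among the cyclins, *CDK1* and its regulators, *CCNB1* was highest and *CDC25B*, a phosphatase that activates CDK1, was lowest at 11.6 ± 0.658 CPM per kilobase in shNC. Between them lay *CKS2*, a small subunit of CDK1 complexes, at 98.3 ± 12.4, *CCNA2*, cyclin A2, at 76.1 ± 1.45, *CDK1* at 56.2 ± 1.13, *CCNB2*, cyclin B2, at 40.4 ± 2.36, and the phosphatase *CDC25C* at 12.8 ± 0.74. Among the kinases and their partners *PLK1* led. *AURKA*, the Aurora kinase of spindle poles, stood at 63.4 ± 2.2, and *TTK*, the kinase known as MPS1 that starts the checkpoint signal, was lowest at 16.9 ± 3.08. The chromosomal passenger complex was represented by *BIRC5*, which encodes survivin, at 56.5 ± 5.37, the kinase *AURKB* at 40.8 ± 3.06 and its scaffold *INCENP* at 24.1 ± 0.37 CPM per kilobase. Among the motors and microtubule proteins *KIF2C*, a kinesin that takes microtubules apart at centromeres, was highest at 79.3 ± 2.28, and *KIF11*, the motor that pushes the spindle poles apart, was lowest at 12.8 ± 2.22. In the anaphase switch *UBE2C* was lowest at 60.02 ± 2.77, and among the kinetochore genes *NUF2* was highest at 26.9 ± 2.86. In the checkpoint *BUB1* was highest at 42.5 ± 1.81 and *MAD2L1* lowest at 20.1 ± 0.718, and of the genes of chromosome proteins *TOP2A* stood at 48.9 ± 5.65 and *MKI67* at 25.04 ± 1.67 CPM per kilobase in shNC.

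Over all 6 libraries, no member passed edgeR's quasi-likelihood test between the groups. With that test, 0 of the 38 had an adjusted p under 0.05, with or without a fold change of at least 2, and of all genes tested 0.00522% were called. At an unadjusted p under 0.05, 4 members were higher and 8 were lower in the libraries labelled shATGL, which is 10.5% and 21.1% of the 38, against 5.77% and 5.94% of all genes tested. Those 4 were *CENPE*, *CENPF*, *MKI67* and *HMMR*, and those 8 were *CCNA2*, *CCNB1*, *CCNB2*, *AURKA*, *MAD2L1*, *UBE2C*, *PTTG1* and *KIF2C*. In all, 17 members had a log2 fold change above 0 and 21 below it, with a median of -0.042 beside 0.012 over all genes tested. The counts of 4 and 8 moved with every library left out: they became 1 and 1 without shNC 1, 3 and 5 without shNC 2, 2 and 0 without shNC 3, 1 and 1 without shATGL 1, 1 and 2 without shATGL 2, and 15 and 15 without shATGL 3. Shares of all genes tested are not given for these fits with a library left out. Their counts show how calls moved with the libraries, not a change of the members beyond all genes. The other tools gave other counts at an adjusted p under 0.05. DESeq2 gave 1 member, *CENPE*, where 0.562% of all genes passed, and limma voom with library quality weights gave 14 members, where 10.8% of all genes passed.

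The groups did not overlap for 11 members. Only *CENPE* was higher in each shATGL library than in any shNC library, where 7.93% of all genes tested were, and 10 members were lower in each, where 9.38% of all genes were. The 10 were *CCNA2*, *CCNB1*, *CCNB2*, *AURKA*, *BUB3*, *MAD2L1*, *UBE2C*, *PTTG1*, *KIF20A* and *KIF2C*, none of which had an adjusted p under 0.05 in edgeR, while limma voom gave one under 0.05 for *CCNB1*, *UBE2C*, *PTTG1* and *KIF2C*. For the other 27 members the groups overlapped.

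*CENPE* (chr4:103105806-103198409, minus strand, GENCODE 29 on GRCh38) had the smallest p of the 38. It stood at 38.03, 39.4 and 36.4 CPM in shNC, against 85.8, 87.4 and 42.2 CPM in shATGL. Both shATGL 1 and 2 were far above every control, while shATGL 3 was only just above shNC 2. The log2 fold change was 0.92 ± 0.25 (SE, adjusted p = 0.392), and without shATGL 3 it was 1.19 ± 0.056 (adjusted p = 9.43e-05). *CENPF* (chr1:214603195-214664588, plus strand), a large protein of the outer kinetochore, had the largest log2 fold change of the 38. It was found at 70.1, 72.4 and 75.7 CPM in shNC, against 178, 181 and 67.8 CPM in shATGL. Here shATGL 3 lay below all 3 controls and the groups overlapped. This gave a log2 fold change of 0.97 ± 0.33 (SE, adjusted p = 0.392), and without shATGL 3 it was 1.30 ± 0.051 (adjusted p = 7.1e-05).

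*MKI67* (chr10:128096659-128126385, minus strand) encodes Ki-67, the protein that coats mitotic chromosomes and is stained to count dividing cells. It stood at 299, 341 and 313 CPM in shNC, against 552, 554 and 317 CPM in shATGL. The values of shATGL 1 and 2 lay above all others, and shATGL 3 lay within the control range. The log2 fold change was 0.58 ± 0.20 (SE, adjusted p = 0.392), and 0.80 ± 0.058 (adjusted p = 0.000368) without shATGL 3. *TOP2A* (chr17:40388516-40417950, minus strand), the topoisomerase that disentangles sister chromatids and the target of etoposide and the anthracyclines, stood at 273, 317 and 254 CPM in shNC, against 562, 566 and 216 CPM in shATGL. Again shATGL 1 and 2 were high, and shATGL 3 was lower than each control. Its log2 fold change was 0.67 ± 0.33 (SE, adjusted p = 0.46), and 1.002 ± 0.084 (adjusted p = 0.00065) without shATGL 3.

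Among the anaphase genes the differences ran the other way and were small. *UBE2C* (chr20:45812576-45816957, plus strand) encodes the ubiquitin-conjugating enzyme of the anaphase-promoting complex. It stood at 56.5, 51.9 and 56.1 CPM in shNC, against 43.8, 45.4 and 50.9 CPM in shATGL. All 3 shATGL libraries were below the 3 controls, shATGL 3 by the least. Its log2 fold change was -0.23 ± 0.081 (SE, adjusted p = 0.392), and -0.30 ± 0.063 (adjusted p = 0.0229) without shATGL 3. *PTTG1* (chr5:160421822-160428744, plus strand) stood at 122, 121 and 146 CPM in shNC, against 97.8, 97.1 and 120.1 CPM in shATGL. Its groups did not overlap either, with shATGL 3 just under the lowest control. The log2 fold change was -0.31 ± 0.11 (SE, adjusted p = 0.396), and -0.42 ± 0.085 (adjusted p = 0.0211) without shATGL 3. *CDC20* (chr1:43358955-43363203, plus strand) was at 1019.6, 1037 and 1077 CPM in shNC, against 945, 966 and 1048 CPM in shATGL. Its groups overlapped, and its log2 fold change was -0.082 ± 0.058 (SE, adjusted p = 0.582), and -0.13 ± 0.042 (adjusted p = 0.0802) without shATGL 3.

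*CCNB1* (chr5:69167010-69178245, plus strand) was at 238, 231 and 249.7 CPM in shNC, against 209, 202 and 225 CPM in shATGL. Every shATGL library was below every control. Its log2 fold change was -0.18 ± 0.064 (SE, adjusted p = 0.396), and -0.23 ± 0.05 (adjusted p = 0.0269) without shATGL 3. Its partner *CDK1* stood at 109, 112 and 107 CPM in shNC, against 128, 118 and 89.3 CPM in shATGL, with shATGL 1 and 2 above the controls and shATGL 3 below them, and the log2 fold change (± SE) was 0.031 ± 0.12 (0.17 ± 0.052 without shATGL 3). With the value without shATGL 3 in brackets, *CCNB2* and *CCNA2* had log2 fold changes of -0.18 ± 0.067 (-0.16 ± 0.06) and -0.13 ± 0.052 (-0.12 ± 0.045), and *CKS2* had -0.24 ± 0.10 (-0.29 ± 0.099). The phosphatases *CDC25B* and *CDC25C* had -0.019 ± 0.072 (-0.0094 ± 0.069) and -0.14 ± 0.098 (-0.22 ± 0.083). In this role 1 of 7 members, *CDK1*, had a log2 fold change above 0 with all libraries.

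Of the kinases and passenger genes, *TTK* stood at 59.97, 75.6 and 53.2 CPM in shNC, against 111, 117 and 49.9 CPM in shATGL. The pattern was that of *CENPF*, high in shATGL 1 and 2 and below the controls in shATGL 3, with a log2 fold change of 0.56 ± 0.30 (SE, adjusted p = 0.493), and 0.86 ± 0.13 (adjusted p = 0.00749) without shATGL 3. With the value without shATGL 3 in brackets, *PLK1* had a log2 fold change of -0.065 ± 0.063 (-0.11 ± 0.052), *AURKB* 0.01 ± 0.075 (0.0053 ± 0.073) and *INCENP* 0.065 ± 0.072 (-0.00069 ± 0.05). *AURKA*, lower in every shATGL library than in any control, had -0.15 ± 0.062 (-0.18 ± 0.055). *BIRC5* had -0.19 ± 0.10 (-0.30 ± 0.077), which without shATGL 3 is 81.3% of the control level. None of the 6 had an adjusted p under 0.05 in edgeR with all libraries, and *TTK* alone did in limma voom.

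In the spindle checkpoint, *BUB1*, a kinase that marks centromeres, stood at 158, 152 and 145 CPM in shNC, against 188, 184 and 125 CPM in shATGL. *BUB1B*, which encodes BUBR1, was at 105, 104 and 94.8 CPM in shNC, against 115, 124 and 85.4 CPM in shATGL. Both were highest in shATGL 1 and 2 and lowest in shATGL 3. Their log2 fold changes were 0.13 ± 0.15 (0.29 ± 0.051 without shATGL 3) and 0.094 ± 0.13 (0.24 ± 0.064 without shATGL 3). *MAD2L1*, which encodes the MAD2 protein that binds CDC20, was at 114, 107 and 108 CPM in shNC, against 102, 98.2 and 95.9 CPM in shATGL, and *BUB3*, the partner of BUB1 and BUBR1, was at 238, 242 and 249 CPM in shNC, against 227, 222 and 224 CPM in shATGL. For these 2 genes all 3 shATGL libraries were below the controls, with log2 fold changes of -0.16 ± 0.06 (-0.14 ± 0.052 without shATGL 3) and -0.11 ± 0.051 (-0.12 ± 0.045 without shATGL 3).

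Among the motors and microtubule proteins, some were high in shATGL 1 and 2 and others were not. *HMMR*, a spindle protein that is also the hyaluronan receptor RHAMM, was at 69.6, 85.6 and 60.3 CPM in shNC, against 159, 157 and 61.8 CPM in shATGL. *KIF11* was at 63.1, 72.9 and 51.3 CPM in shNC, against 113, 114 and 49.6 CPM in shATGL. In both, shATGL 1 and 2 lay well above every control and shATGL 3 lay within or below the control range. Their log2 fold changes, with the value without shATGL 3 in brackets, were 0.81 ± 0.33 (1.13 ± 0.12) and 0.56 ± 0.30 (0.86 ± 0.12). *ANLN*, which encodes the contractile ring protein anillin, and *KIF23*, a motor of the central spindle, had the same shape at lower size, with log2 fold changes of 0.46 ± 0.29 (0.76 ± 0.12) and 0.28 ± 0.20 (0.49 ± 0.10). *KIF20A*, another central spindle motor, was at 150.3, 147 and 151 CPM in shNC, against 133, 136 and 142 CPM in shATGL, and *KIF2C* was at 234, 228 and 241 CPM in shNC, against 207, 206 and 223 CPM in shATGL. Both were slightly lower in every shATGL library, with log2 fold changes of -0.12 ± 0.055 (-0.15 ± 0.045) and -0.15 ± 0.058 (-0.19 ± 0.046). *TPX2*, which activates AURKA on the spindle, was the steadiest of the 38, between 244 and 248 CPM in all 6 libraries, with a log2 fold change of -0.0062 ± 0.049 (-0.0082 ± 0.041). *PRC1*, which bundles the microtubules of the central spindle, and *NUSAP1*, another microtubule-binding protein, had -0.11 ± 0.13 (0.022 ± 0.072) and 0.035 ± 0.11 (0.16 ± 0.047), so that *PRC1* changed sign without shATGL 3.

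**Figure D2:**
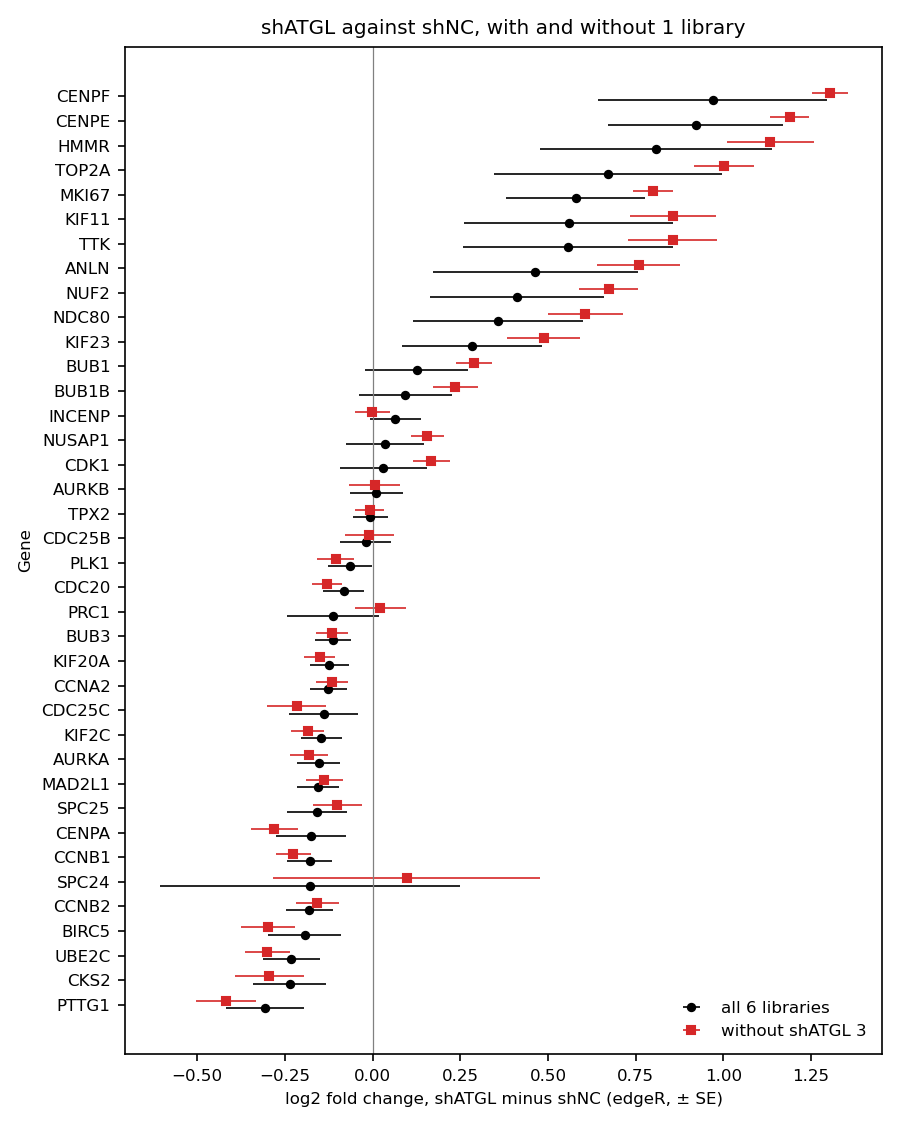
log2 fold change of each of the 38 genes, shATGL minus shNC, from edgeR with its SE, over all 6 libraries (black) and without shATGL 3 (red). *CENPF*, *CENPE*, *HMMR* and *TOP2A* lie at the top and *PTTG1* at the bottom; without shATGL 3 the values are farther from 0 and their errors smaller for most of the genes at both ends.

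Without shATGL 3, which left 2 libraries labelled shATGL against 3 controls, 13 members were higher and 6 lower at an adjusted p under 0.05, against 7.94% and 6.07% of the 19954 genes tested. The 13 were *TTK*, *BUB1*, *BUB1B*, *CENPE*, *CENPF*, *NDC80*, *NUF2*, *KIF11*, *KIF23*, *HMMR*, *ANLN*, *TOP2A* and *MKI67*. The 6 were *CCNB1*, *BIRC5*, *UBE2C*, *PTTG1*, *CENPA* and *KIF2C*. The higher members included checkpoint kinases, outer kinetochore proteins and spindle motors. The lower members were cyclin B1, securin, survivin, *UBE2C*, the centromere gene *CENPA* and the kinesin *KIF2C*, so motors lay on both sides. *CENPE*, *CENPF*, *HMMR* and *TOP2A* also passed a fold change of at least 2, which 1.5% of all genes tested did in that direction. The 6 lower members lay between 74.9% and 87.9% of their control level. The median log2 fold change of the 38 without shATGL 3 was -0.00443, beside 0.00695 over all genes tested, and 18 of the 38 lay above 0. The label shATGL was carried by all 3 libraries, so the values without shATGL 3 describe 2 of them. That library was left out after the counts were seen, so the adjusted p-values without it do not measure the evidence for a difference between the labels.

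The higher and the lower members differed in the length of their coding sequence. Over the 38 genes, the log2 fold change had a Spearman's rho of 0.836 with coding length, 0.616 with the length of the longest protein-coding transcript and -0.47 with its GC content. These are descriptions across genes, which are not independent replicates. The same relation was present over all 13687 protein-coding genes tested, where rho was 0.449 with coding length, and 0.622 for the 8869 of them at a mean of 10 CPM or more. As the difference of each library from the shNC mean, rho with coding length over the 38 genes was 0.705, 0.771 and -0.0566 in shATGL 1, 2 and 3. Over the 8869 genes it was 0.543, 0.551 and 0.24. With GC content, rho over the 38 genes was -0.563, -0.491 and 0.538 in shATGL 1, 2 and 3. Libraries of 1 group also differed along coding length. For the difference of shNC 2 from shNC 3, rho with it was 0.613 over the 38 genes and 0.337 over all 13687. The share of counts on mitochondrial genes was 6.34% and 6.51% in shATGL 1 and 2 and between 7.41% and 8.17% in the other 4 libraries, and its part in these differences was not tested. The 9 members with the longest coding sequences, from *KIF23* (2880 bases) to *MKI67* (9768 bases), were all among the 13 higher ones.

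**Figure D3:**
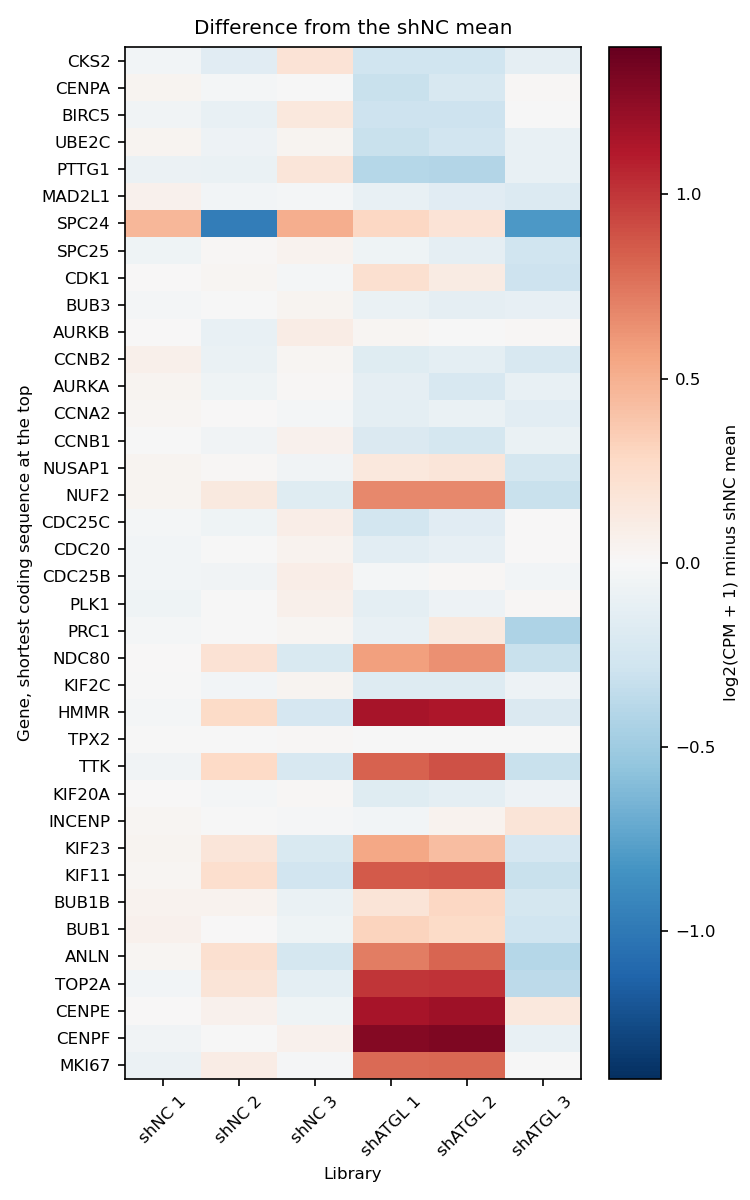
Difference of each library from the shNC mean, in log2(CPM + 1), for the 38 genes ordered by coding length with the shortest at the top. The red cells of shATGL 1 and 2 gather towards the bottom, at the long genes, and the pale blue ones towards the top; *NUF2* and *HMMR* are red among genes of middle length, and *KIF20A* and *INCENP* are not red among longer ones.

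Coding length did not order every member. *TTK* (2571 coding bases, 40.8% GC) and *KIF20A* (2670 coding bases, 48.4% GC) are of like length, and their log2 fold changes without shATGL 3 were 0.86 and -0.15. *INCENP* (2754 coding bases, 59.6% GC) had -0.00069. *NUF2* (1392 coding bases, 38.8% GC) had 0.67 and *CDC20* (1497 coding bases, 57.9% GC) had -0.13. In these pairs, picked after their values were seen, the gene with the lower GC content was the higher one. In others it was not: *CDC25C* (1419 coding bases, 46.5% GC) had -0.22, below *CDC20*. *BUB3* and *MAD2L1* have long transcripts of 7828 and 5468 bases but coding sequences of 984 and 615 bases, and both were slightly lower.

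**Figure D4:**
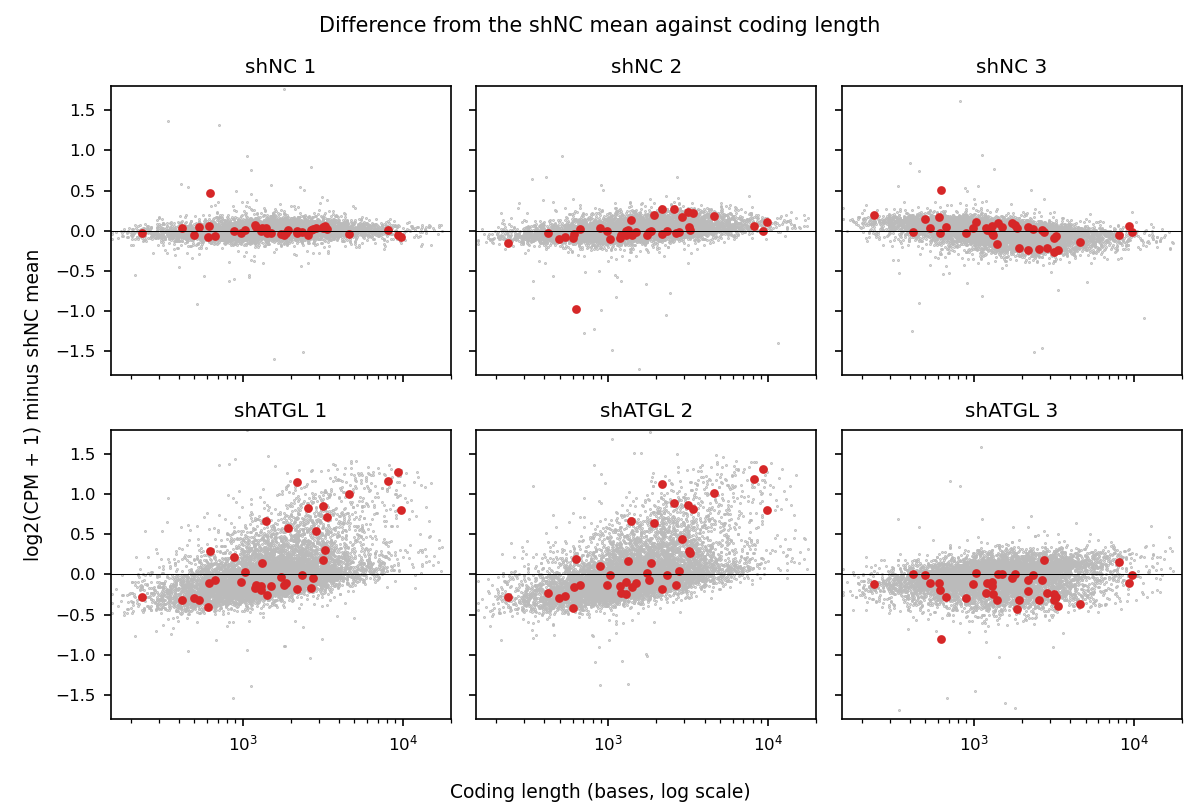
Difference of each library from the shNC mean, in log2(CPM + 1), against coding length in bases on a log scale. Red points are the 38 genes, and grey points are the 8869 protein-coding genes tested at a mean of 10 CPM or more. The red points rise with coding length in shATGL 1 and 2 (Spearman's rho 0.705 and 0.771) and not in shATGL 3 (rho -0.0566). For the grey points rho was 0.543, 0.551 and 0.24 in shATGL 1, 2 and 3.

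To see what was left beside this trend, each library's smooth trend with coding length and GC content over all genes was removed in the fit, an alternative chosen after seeing the data. In edgeR over all 6 libraries no member then had an adjusted p under 0.05. Without shATGL 3, 10 members were higher and 6 lower, against 5.57% and 7.52% of all genes tested, and 0 passed a fold change of at least 2. The 10 were *TTK*, *CENPE*, *CENPF*, *NDC80*, *NUF2*, *KIF11*, *HMMR*, *ANLN*, *TOP2A* and *MKI67*, all of them among the 13 above. The log2 fold change of *CENPE* without shATGL 3 went from 1.19 to 0.35 and that of *CENPF* from 1.30 to 0.68, while *HMMR* went from 1.13 to 0.68. *BUB1*, *BUB1B* and *KIF23* no longer passed, with -0.016, -0.036 and 0.21. The 6 lower members were *CCNA2*, *CCNB1*, *BUB3*, *MAD2L1*, *KIF20A* and *KIF2C*. *UBE2C*, *PTTG1*, *BIRC5* and *CENPA* no longer passed, with -0.036, -0.18, -0.011 and -0.022. Over the 38 genes, rho of the log2 fold change with coding length was 0.436 after the removal with all libraries.

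The NDC80 complex, the 4-subunit rod that ties kinetochores to microtubules, shows the split inside 1 complex. *NDC80* was at 56.1, 64.2 and 48.1 CPM in shNC, against 83.4, 87.5 and 44.6 CPM in shATGL, and its partner *NUF2* was at 54.01, 57.99 and 46.9 CPM in shNC, against 84.6, 84.4 and 42.2 CPM in shATGL. Both were highest in shATGL 1 and 2 and lowest in shATGL 3. Their log2 fold changes were 0.36 ± 0.24 and 0.41 ± 0.25, and without shATGL 3 they were 0.61 ± 0.11 (adjusted p = 0.0136) and 0.67 ± 0.085 (adjusted p = 0.00394). *SPC25*, at the other end of the rod, was at 32.1, 34.04 and 34.7 CPM in shNC, against 32.1, 30.6 and 27.6 CPM in shATGL, without higher values in shATGL 1 and 2 and with a log2 fold change of -0.16 ± 0.085 (-0.10 ± 0.07 without shATGL 3). Per kilobase, the ratio of *NDC80* to *NUF2* stayed between 0.894 and 1 in the 6 libraries. The ratio of *NDC80* to *SPC25* was 1.09, 1.18 and 0.864 in shNC, against 1.62, 1.78 and 1.01 in shATGL, so that it was higher in shATGL 1 and 2 than in the other 4 libraries.

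*SPC24*, the fourth subunit, varied in a way of its own. It was at 39.2, 13.8 and 40.3 CPM in shNC, against 34.5, 32.3 and 15.7 CPM in shATGL. It was low in shNC 2 and shATGL 3, which are the 2 shallowest libraries but belong to different groups, and its log2 fold change was -0.18 ± 0.43, the largest SE of the 38. Without shATGL 3 it changed sign, to 0.097 ± 0.38 (adjusted p = 0.909). Of all genes tested, 54 were more than 2-fold lower in both these libraries than in each of the other 4, and *SPC24* was the only one of them at a mean of 5 CPM or more. Its lowest count was 823, and the cause of the low values was not tested.

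**Figure D5:**
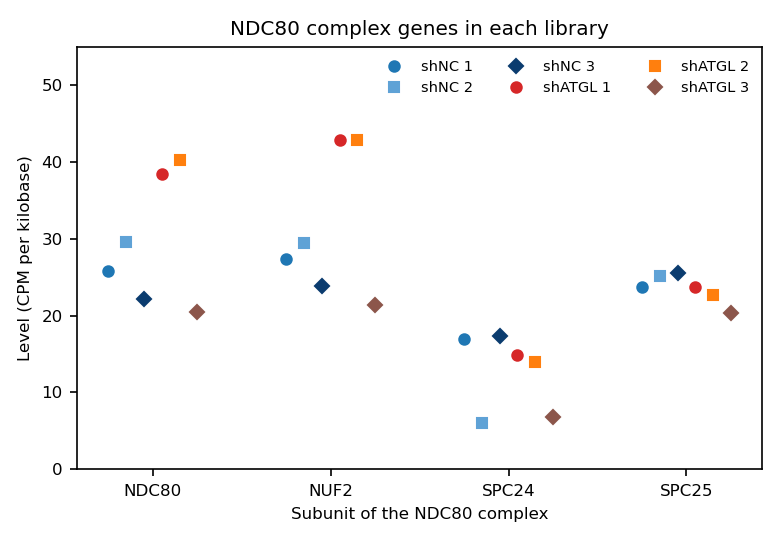
Level of the 4 genes of the NDC80 complex in each library, in CPM per kilobase of the longest protein-coding transcript. *NDC80* and *NUF2* move together and are highest in shATGL 1 and 2, *SPC25* stays between 20.4 and 25.6 in every library, and *SPC24* is low in shNC 2 and shATGL 3.

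Of other partners, some kept a steady ratio and others were divided. Per kilobase, the ratio of *CCNB1* to *CCNB2* lay between 2.54 and 3.01, that of *MAD2L1* to *BUB3* between 0.612 and 0.689 and that of *AURKB* to *INCENP* between 1.5 and 1.83 over the 6 libraries. The ratio of *MAD2L1* to *BUB1B* was 0.745, 0.699 and 0.777 in shNC, against 0.607, 0.538 and 0.765 in shATGL, and that of *BUB1B* to *BUB3* was 0.925, 0.908 and 0.800 in shNC, against 1.06, 1.18 and 0.800 in shATGL. Without shATGL 3, the log2 fold change of *BUB1B* was 0.24, and -0.036 with the coding length and GC trends removed. The ratio of *CDK1* to *CCNB1* was 0.512, 0.537 and 0.478 in shNC, against 0.681, 0.653 and 0.442 in shATGL. *CENPA*, the histone variant that marks centromeres, was at 37.4, 35.9 and 36.3 CPM in shNC, against 29.2, 31.03 and 36.8 CPM in shATGL, low in shATGL 1 and 2 only, with a log2 fold change of -0.18 ± 0.099 (-0.28 ± 0.066 without shATGL 3).

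The 38 genes did not move as 1 unit over the libraries. The median of their differences from the shNC mean was 0.00192, -0.00646 and 0.0143 in shNC, against -0.0366, 0.0082 and -0.117 in shATGL, on the log2(CPM + 1) scale. The median Pearson's correlation over the 703 pairs of members, each over the 6 libraries, was 0.101, beside -0.0016 over all pairs of genes tested. As deviations from the group means both medians were, in turn, 0.134 and 0.0001. Of the pairs of members, 14.7% had a correlation of at least 0.9 and 6.26% one of -0.9 or lower, and of all pairs of genes 2.27% and 1.94% did. Without shATGL 3 these shares were 21.5% and 22.2% of the pairs of members, beside 4.51% and 4.5% of all pairs, and the median correlation of the members was 0.0144. With each library's trends with transcript length and GC content removed, the shares over the 6 libraries were 10.1% and 6.4% of the pairs of members, beside 2.2% and 2.06% of all pairs. The members all lay above the median level of the genes tested, and the pairs were not matched for level. All these values share the same 6 libraries and their normalization. The median deviation of -0.117 in shATGL 3 was the lowest of the 6, and -0.01 was the median there over all genes tested.

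Lists of other mitotic genes differed in how their members lay. Of 20 genes of condensin, cohesin and separase, which fold and hold chromatids, 16 had a log2 fold change above 0 with a median of 0.275, and of 19 other spindle motors and microtubule proteins 16 did with a median of 0.285. With all 6 libraries none of either list had an adjusted p under 0.05 in edgeR, 1 of each did in DESeq2 and 8 of each in limma voom. Without shATGL 3, 12 of the 20 and 11 of the 19 were higher at an adjusted p under 0.05 in edgeR and 0 were lower, where 7.94% of all genes tested were higher and 6.07% lower. With the coding length and GC trends also removed, 8 and 11 were higher and 5 and 3 lower, where 5.57% of all genes tested were higher and 7.52% lower. Over all 6 libraries with those trends removed, the medians of these lists were 0.026 and 0.056. Of genes chosen after their values were seen, *SMC4* of condensin had a log2 fold change of 1.01 with all libraries. *ASPM*, a spindle pole protein with one of the longest coding sequences here (10431 bases), had 1.02. Of 30 other kinetochore genes 14 lay above 0 (median -0.042), and 9 were higher and 4 lower without shATGL 3 at an adjusted p under 0.05. Of 17 genes of the anaphase-promoting complex 6 lay above 0 (median -0.087), and of 40 genes of DNA replication 11 did (median -0.068). Without shATGL 3, 2 of the 17 and 5 of the 40 were higher and 2 and 6 were lower at an adjusted p under 0.05. For these 3 lists too, the shares of all genes tested were 7.94% higher and 6.07% lower.

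Of 23 regulators of mitotic entry and transcription, 14 lay above 0 with a median of 0.021. Without shATGL 3, 1 was higher and 2 were lower at an adjusted p under 0.05 in edgeR, where 7.94% and 6.07% of all genes tested were. Of the regulators given here by name, none had an adjusted p under 0.05 in edgeR. *FOXM1*, a transcription factor of G2/M genes, was at 83.3, 83.8 and 83.03 CPM in shNC, against 87.3, 83.2 and 88.1 CPM in shATGL, with a log2 fold change of 0.048 ± 0.057 (SE, adjusted p = 0.751). *MYBL2*, which works with it on the same promoters, was at 377, 377 and 389 CPM in shNC, against 358, 365 and 379 CPM in shATGL, with a log2 fold change of -0.052 ± 0.052 (SE, adjusted p = 0.696). *CDKN1A*, which encodes the CDK inhibitor p21, had a log2 fold change of -0.011 ± 0.08 (SE, adjusted p = 0.965).

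Promoters of G2/M genes are known for 2 elements, the cell cycle homology region (CHR), bound by the DREAM and B-MYB complexes, and CCAAT boxes, bound by NF-Y. RefSeq promoters (GRCh38.p14, 250 bases before to 50 after a start) were at hand for 32 of the 38 genes, and *AURKA*, *BIRC5*, *BUB3*, *TPX2*, *TTK* and *UBE2C* were not matched. The CHR was searched as TTTGAA or TTCGAA and the CCAAT box as CCAAT, on both strands. In 24 of the 32 genes, or 75%, at least 1 promoter held the CHR letters, against 19.5% of all 27305 genes with a promoter, and 26, or 81.2%, held CCAAT, against 39.7%. Both were found in 20, or 62.5%, against 7.85%. Of the 12 matched members that were higher without shATGL 3, 11 held the CHR letters, as did 1 of the 4 lower ones and 12 of the other 16. CCAAT letters were held by 7 of the 12, 3 of the 4 and all 16. A match describes these letters and not a bound site. A missing match does not show that an element is absent, since other forms of it were not searched. Among the lower members, *BIRC5* and *UBE2C* had no promoter to search.

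*CENPF*, *MKI67* and *KIF11* were high in shATGL 1 and 2, *CDC20* was not, and *KIF2C* was slightly lower. The following stretches from these genes are examples that differ in the number and place of their motifs. Each reads 5′ to 3′ on the strand of the gene from 130 bases before its RefSeq start, and ends at that start or at the first base of the GENCODE gene, whichever comes first. Capitals mark CHR and CCAAT letters on either strand.
CENPF, chr1:214603065-214603194, plus strand: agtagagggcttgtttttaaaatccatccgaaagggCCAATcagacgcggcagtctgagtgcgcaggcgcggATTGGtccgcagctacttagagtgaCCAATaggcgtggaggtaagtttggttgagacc
MKI67, chr10:128126424-128126553, minus strand: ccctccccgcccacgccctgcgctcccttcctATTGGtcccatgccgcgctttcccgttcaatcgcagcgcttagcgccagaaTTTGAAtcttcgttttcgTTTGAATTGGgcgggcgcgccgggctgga
KIF11, chr10:92593000-92593129, plus strand: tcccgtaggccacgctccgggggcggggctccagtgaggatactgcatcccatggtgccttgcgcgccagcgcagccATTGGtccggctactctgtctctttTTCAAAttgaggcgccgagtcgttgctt
CDC20, chr1:43358851-43358954, plus strand: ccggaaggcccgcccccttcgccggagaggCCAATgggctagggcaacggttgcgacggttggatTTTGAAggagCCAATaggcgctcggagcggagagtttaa
KIF2C, chr1:44739707-44739817, plus strand: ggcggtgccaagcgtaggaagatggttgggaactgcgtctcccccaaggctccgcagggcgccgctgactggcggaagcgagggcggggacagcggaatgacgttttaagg
*CENPF* shows CCAAT letters at 94, 58 and 33 bases before the start, with its CHR letters outside the stretch shown. *MKI67* has CHR letters at 47 and 29 bases and *KIF11* at 28 bases before the start, and *CDC20* at 65 bases, between its CCAAT letters at 100 and 55 bases. *KIF2C* holds neither.

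Reads of some members could have been shared with other genes, since the strand setting of the counting is not given in the sources used here. Of the 38, 15 share exon bases with another annotated gene, 4 of them on the same strand. *PRC1* shares 3181 exon bases with ENSG00000284946, a gene on the same strand that took between 5598 and 8872 counts per library, or 47.1% to 97.7% of the count of *PRC1*. The sum of both was 280, 265 and 277 CPM in shNC, against 279, 278 and 251 CPM in shATGL, so the level of *PRC1* alone is uncertain. *NUSAP1* shares 1787 bases with ENSG00000285920, which had at most 318 counts. *CENPA* shares 138 bases with *SLC35F6*, which took 38.8% to 43.3% of the count of *CENPA*, and *BUB1B* shares exons with the read-through gene *BUB1B-PAK6*, which had at most 3 counts. On the opposite strand, *CDC25C* overlaps *FAM53C* by 293 bases, a gene with 333% to 390% of its counts. *KIF20A* overlaps *BRD8* and *CDC23*, with 55.6% to 77.3% and 63.6% to 68.7% of its counts, and *CCNA2* overlaps *EXOSC9* by 254 bases, with 21.9% to 29.6%. *SPC24* is also among the 15. *PLK1*, *MAD2L1*, *NUF2*, *KIF23*, *KIF2C*, *HMMR* and *ANLN* overlap genes with at most 1.91% of their counts. The near-identical copies *PTTG2* and *PTTG3P* of *PTTG1* had at most 4 counts in a library, and the *UBE2C* copies *UBE2CP1* and *UBE2CP3* at most 3.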

How the data were processed

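RNA was sequenced as paired ends, low-quality reads were removed with FASTP, and the authors deposited 1 raw count per gene and library for 61806 Ensembl genes, without normalization. The submitters' processing notes name mm10, a mouse build, although the identifiers are human; the aligner, counting tool, annotation and strand setting are not given in the sources used here. The sources also describe the RNA extraction and the library preparation in more than 1 way. Every count column was matched to a library by its label. Groups and replicate numbers came from the labels.

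The fits were made with edgeR 4.0.16 under R 4.3.3 (filterByExpr with a minimum count of 10 and a minimum total of 15, TMM, quasi-likelihood test, all 6 libraries, no block), with Benjamini-Hochberg adjustment over all genes tested. A call needed an adjusted p under 0.05 together with at least a 2-fold change. DESeq2 1.42.0 and limma 3.58.1 served as alternatives, with other scalings and filters, each library left out in turn, and removal of each library's trend with length and GC content (natural splines with 4 degrees of freedom). Fits were also run on simulated data in which all shATGL libraries changed alike. The simulations held no library that stood apart and no trend with coding length or GC content, so they did not test the fits for these. Levels per kilobase, positions and overlaps used GENCODE 29 on GRCh38, which may differ from the annotation counted. The pseudocount was 1.

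The members and gene lists were chosen with earlier results of these data known. Every member was named; by rule, full statistics were given for the 6 members with the smallest p and levels per kilobase for the highest and lowest member of each role. Further values were added after they were seen. A few genes that the naming rule or an overlap would bring in are not reported here.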

Additional observations from a re-analysis of the deposited data

How the results depend on the processing

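No alternative normalization or filter gave a called member in edgeR with all 6 libraries. limma voom with quality weights called 3, where 266 of all 19149 genes tested were called. Leaving out each library gave 0 to 4, the 4 without shATGL 3, where 1.5% of all genes tested were called higher. At an adjusted p under 0.05 there were 0 members with all libraries in edgeR. DESeq2 gave 1, where 0.562% of all genes passed, and voom gave 14, where 10.8% did. With a library left out there were 0 to 19, the 19 without shATGL 3, where 7.94% of all genes tested were higher and 6.07% lower. There were 18 without shATGL 3 and without the trends with transcript length and GC content. With coding length in place of transcript length there were 16, where 5.57% of all genes tested were higher and 7.52% lower. At an unadjusted p under 0.05 the 4 higher members became 12 in voom and 1 to 15 with a library left out (14 and 12 without shATGL 3 and without either trend). The 8 lower members became 4 with upper-quartile scaling, 3 in DESeq2, 15 in voom, 0 to 15 with a library left out, 5 without the coding length and GC trends, and 13 and 14 without shATGL 3 and without the transcript or coding length trend. In voom 2977 of all 19149 genes were higher and 2884 lower at that threshold, and with upper-quartile scaling 890 were lower. Shares of all genes are not given for the other counts in this section. Those counts show how calls moved with the setting, not a change of the members beyond all genes. The median log2 fold change lay between -0.049 and 0.00622 with a library left out, above 0 without shNC 3. PNPLA2 lay between -0.024 and 0.0327 with a library left out. It turned from just below 0 to 0.0327 without shNC 3, 0.018 without shATGL 2, and 0.00908 without shATGL 3 and the coding length trends. Over the 17 alternatives 27 members kept 1 direction (11 higher, 16 lower). Same-numbered libraries of the groups had correlations of 0.0485, 0.229 and 0.344 between their deviations, and shNC 1 was closer to shATGL 2 (0.0882) than to shATGL 1, so the numbers were not taken to pair the libraries; with the replicate number as a block, 0 members had an adjusted p under 0.05 and 13 were lower at an unadjusted p under 0.05. The median correlation of the members stayed between 0.0144 and 0.134 under the alternatives. CENPE over all 6 libraries had an adjusted p of 0.392 in edgeR, 0.0223 in DESeq2 and 0.025 in voom, where it also passed the 2-fold threshold; the cause of the differences between tools was not tested.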
